A study of Populus davidiana with 6 samples.

Results

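The genes described here are the annotated poplar genes for which 15 or more different transcripts were listed. They were found by grouping the transcripts of the deposited files by gene, keeping single annotated genes and leaving out loci that the assembly had merged or placed outside the annotation, and counting the transcripts of each gene. The count gave 331 genes out of 40537 genes and loci in all, or 0.910% of the 36380 annotated genes. Their 6663 transcripts were 5.90% of the 112919 listed. No level of expression was used in the choice, but the list of transcripts was itself assembled from RNA-seq reads, so the number per gene is a property of the assembly as well as of the gene.

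The samples were leaves of Populus davidiana, an aspen, of the drought-sensitive cultivar Seogwang15. Plants about 6 weeks old, grown in sterile culture from internodes on an auxin-supplemented medium, were taken out of the medium, rinsed and exposed to air for about 10 minutes as a drought treatment, which gave the air-dried group of 3 libraries. The control group of 3 libraries came from plants of the same cultivar and age, and the labels do not say whether control plants were also lifted and rinsed. Polyadenylated RNA was sequenced as paired 100 bp reads, and the files give one FPKM value per transcript and library (fragments scaled to the length of the transcript and to all mapped fragments of the library), a status that is KNOWN for transcripts of the reference annotation and sets apart those that were assembled from reads, and coordinates on a genome build that is not given in the sources used here.

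One gene can give rise to several mature RNAs when introns are removed at alternative sites, when exons are skipped or when an intron is kept. In plants a kept intron is the most common of these events. RNAs from alternative splicing often carry an early stop codon, and some of them are degraded by nonsense-mediated decay. Splicing patterns in leaves are known to respond within minutes to hours to light, temperature and water loss. Short reads cover only part of a transcript, so the levels of transcripts that share most of their exons are estimates: the software divides the fragments of shared exons among them by likelihood, and the total of the gene is better determined than the division.

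The files do not pair the gene identifiers with names or functions, so genes are given below by their position, and leaf marker genes were not checked. Replicates 1 of both groups stood apart from the other 4 libraries: 93 and 191 transcripts of the whole files were above 10000 FPKM in air-dried 1 and control 1, against 12 to 18 in the others, although none of those was a transcript of the 331 genes. The number of genes with at least 1 FPKM ranged from 22333 to 22512 in the air-dried libraries and from 21766 to 22229 in the control libraries. Read depth is unknown, since the files hold no counts. Separate plants are not named as the source of the libraries within a group. A p-value therefore measures only how these samples varied, and that variation may be technical.

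The 331 genes were long and most of their transcripts were assembled. The distance from the first to the last listed base had a median of 7997 bp and ranged from 1803 to 45461 bp, compared with a median of 3898 bp for the 15408 annotated genes with 2 to 14 transcripts. The median gene had 18 transcripts, 211 genes had 15 to 19, 98 had 20 to 29 and 22 had 30 or more. Of the 6663 transcripts, 526 (7.89%) were KNOWN and 6137 were assembled. A single KNOWN transcript was present in 250 genes, 47 genes had 2 and 34 had 3 or more, up to 20.

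Most transcripts of a gene shared their ends with others. The median gene used 2 different start and 3 different end coordinates, and 4994 transcripts (74.95%) had the same start and end as another transcript of their gene, so that they could differ only in their internal structure. In all, 6122 assembled transcripts carried the suffix j in their accession. In the output of the assembler Cufflinks this letter stands for an assembled transcript that shares at least one splice junction with an annotated one; the files themselves do not define it. The genes lay on all 19 chromosomes, with 39 on chromosome 1, and 4 lay on unplaced scaffolds. They ran from 0.338% of the annotated genes of chromosome 19 to 1.76% of those of chromosome 18. The span of 50 genes overlapped another gene or locus, in 40 cases on the opposite strand, and no strand-specific library kit is named in the labels, so reads of such partners may have been shared.

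Just inside the limit, the 55 genes with 15 transcripts had a median total of 11.9 FPKM, a median share of 41.0% in the top transcript and a median span of 7955 bp. Just outside it, the 82 genes with 14 transcripts had a median total of 14.5 FPKM, a median share of 43.2% in the top transcript and a median span of 6235 bp. The part of the FPKM in KNOWN transcripts had a median of 15.8% in the genes with 15 transcripts and 10.96% in those with 14.

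Nearly all of these genes were expressed in leaves. This follows in part from the choice, since most of their transcripts were assembled from RNA-seq reads. Over all 40537 genes and loci, 22818 reached a mean of 1 FPKM. The summed FPKM of a gene, averaged over the 6 libraries, had a median of 11.7 and ranged from 0.511 to 1233. A mean of at least 1 FPKM, the minimum used for the tests, was reached by 326 genes, a mean of 10 by 189 and a mean of 100 by 14, and no gene was listed at 0 in any library. Because leaf tissue was measured in bulk, fewer cells of a type and less RNA per cell cannot be told apart in these totals.

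The expression of these genes was spread over several transcripts. The top transcript of each gene, defined as the one with the highest mean FPKM over the 6 libraries, held a median of 38.2% of the gene's FPKM (mean of the 6 libraries), with a range of 13.0% to 96.5% over genes. It held 50% or more in 81 genes and 90% or more in 3. Chosen from replicates 2 and 3 alone, the top transcript was the same one in 284 of the 331 genes. In the 13933 genes with 2 to 14 transcripts, a mean of at least 1 FPKM and a total above 0 in all 6 libraries, the top transcript held a median of 72.3%. Library by library, the median share over the 331 genes was 38.1%, 41.7% and 39.9% in the air-dried libraries and 37.2%, 40.3% and 42.1% in the control libraries, so the ranges of the groups overlapped. Within the set the share was lower in genes with more transcripts, with medians of 40.3%, 35.5% and 31.3% in genes with 15 to 19, 20 to 29 and 30 or more transcripts. A smaller share per transcript follows in part from counting more transcripts, so this is a description with no test.

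Few of the listed transcripts carried much of a gene's expression in any one library. The effective number of transcripts, computed as the inverse of the summed squared shares so that it equals the number of transcripts when all are equal, had a median of 2.99, 3.28 and 3.37 in the air-dried libraries and 2.52, 3.33 and 3.25 in the control libraries. The median gene had 3 transcripts holding at least 10% of its FPKM in each library. Over the 6 libraries together the median gene had 6 transcripts that reached 10% in at least one of them, which is 2141 transcripts (32.1%) in all. At the other end, 2363 transcripts (35.5%) stayed under 0.1% of their gene in every library.

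**Figure D1:**
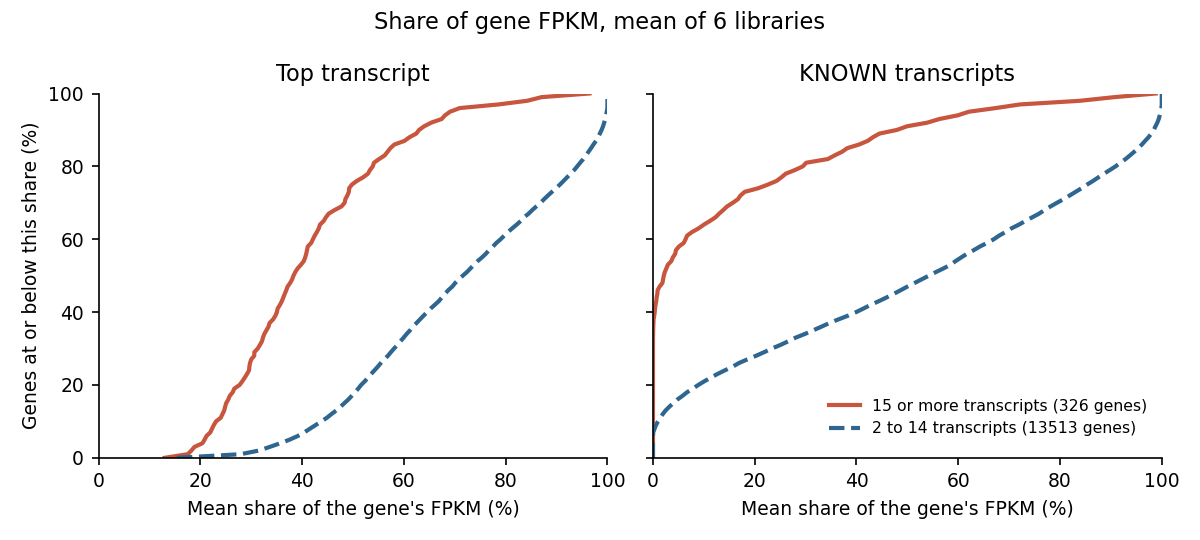
Share of the gene's FPKM (x axis, percent, mean of 6 libraries) held by the top transcript (left) and by KNOWN transcripts (right), as the percent of genes at or below each share (y axis), for 326 genes with 15 or more transcripts and 13513 genes with 2 to 14, all with a mean of at least 1 FPKM, a total above 0 in every library and both KNOWN and assembled transcripts. The curves for genes with 15 or more transcripts lie to the left in both panels, with medians near 38.3% for the top transcript and 2.12% for KNOWN transcripts, where the highest median of a single library was 0.0353%.

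The annotated form was the main transcript in a minority of these genes. The top transcript was KNOWN in 68 of 331 genes (20.5%), compared with 57.2% of the 13568 genes with 2 to 14 transcripts of both kinds and a mean of at least 1 FPKM. With each gene's share averaged over the 6 libraries, KNOWN transcripts together held a mean of 14.2% and a median of 2.05% of the gene's FPKM. This averaged share was under 1% in 154 genes, at least 50% in 30 genes and at least 90% in 4. In single libraries the median was far lower, at 7.04e-08%, 0.00382% and 0.0198% in air-dried leaves and 3.23e-11%, 0.00485% and 0.00126% in control leaves. Among the 326 genes that reached 1 FPKM on average, the share was under 1% in 204, 183 and 173 in air-dried leaves and in 218, 181 and 189 in control leaves, which is most of the genes in each library. Over the 13513 genes with 2 to 14 transcripts of both kinds, a mean of at least 1 FPKM and a total above 0 in every library, the median of the averaged share was 54.2%. The set was not uniform in this respect: the 250 genes with 1 KNOWN transcript had a median KNOWN share of 0.629%, and the 34 genes with 3 or more had a median of 42.7%. A KNOWN transcript led in 54 of the 211 genes with 15 to 19 transcripts, in 14 of the 98 with 20 to 29 and in 0 of the 22 with 30 or more. The genes were chosen by their number of transcripts, of which only 7.89% were KNOWN. A smaller part for KNOWN transcripts follows in part from that choice, so these contrasts are a description with no test. Counted one by one, 36.1% of the KNOWN and 31.8% of the assembled transcripts reached 10% of their gene in at least one library.

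A few genes were dominated by one annotated form. The gene on chromosome 7 from 3359731 to 3363434, plus strand, had 18 transcripts of which 2 were KNOWN, and one KNOWN transcript held 96.0%, 95.4% and 96.0% of its FPKM in the air-dried libraries and 98.5%, 96.2% and 96.7% in the control libraries. A single KNOWN transcript among 17 led the gene on chromosome 6 from 9111777 to 9115707, minus strand, and it held 96.2%, 97.8% and 98.2% in air-dried leaves and 93.5%, 96.8% and 95.8% in control leaves. In these genes the other transcripts each stayed under 10% in all 6 libraries. On chromosome 1, the minus-strand gene from 45852754 to 45857125 had 93.6%, 94.9% and 95.1% of its FPKM in 1 KNOWN transcript in air-dried leaves and 91.2%, 94.2% and 94.0% in control leaves. It was also the third highest of the set, with totals of 598, 614 and 611 FPKM in air-dried leaves and 425, 478 and 483 FPKM in control leaves. The groups did not overlap, but the difference of 0.40 on the log2(FPKM + 1) scale missed the threshold (limma, adjusted p = 0.0567), and the gene overlaps another on the opposite strand. Less even was another gene on chromosome 1, from 11295418 to 11305423, with 83.0%, 78.4% and 83.4% in its top transcript in air-dried leaves and 99.5%, 99.3% and 79.5% in control leaves.

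At the other extreme, some genes had a different leading form from library to library. The largest number, 64 transcripts, was listed for a gene on scaffold 20 from 202947 to 211425, whose totals were even, at 24.98, 25.4 and 29.4 FPKM in air-dried leaves and 22.5, 25.5 and 26.1 FPKM in control leaves. Its top transcript held 11.04%, 0.00340% and 9.96% of that in air-dried leaves and 26.7% and 30.1% in control 2 and 3, and it was listed near 0 in control 1. On chromosome 1, the gene with 32 transcripts from 46286217 to 46293132 had totals between 17.7 and 21.0 FPKM in all libraries and 6 different leading transcripts in the 6 libraries. The gene with 61 transcripts on chromosome 3 from 11781983 to 11788832 had top-transcript shares between 8.33% and 25.8% and totals of 8.32, 12.7 and 11.9 FPKM in air-dried leaves and 19.3, 9.42 and 8.56 FPKM in control leaves. High numbers of transcripts did not always go with an unsteady leader: the gene with 59 transcripts on chromosome 8 from 4209838 to 4220383 and the gene with 57 on chromosome 9 from 6630819 to 6643824 each had the same leading transcript in all 6 libraries. On chromosome 9 that transcript held 85.0%, 60.8% and 47.2% in air-dried leaves and 97.9%, 68.3% and 66.5% in control leaves. The gene with 58 transcripts on chromosome 10 from 12265307 to 12279027 had top-transcript shares of 16.4%, 18.9% and 16.7% in air-dried leaves and 35.4%, 30.5% and 29.9% in control leaves, which do not overlap, with an adjusted p of 0.532 for the difference of -14.6 percentage points (limma).

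The second highest mean total of the set came from one library. The gene on chromosome 3 from 3381059 to 3386371, plus strand, had 18.2, 12.7 and 11.8 FPKM in air-dried leaves and 3500, 17.6 and 20.1 FPKM in control leaves. A single assembled transcript held 99.4% of the value in control 1, was listed at 0 in the air-dried libraries and was listed near 0 in control 2 and 3. Its total did not pass the test with all libraries (log2 difference -2.89, limma adjusted p = 0.464), and without both replicate 1 libraries the difference was -0.58 (adjusted p = 0.0467).

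Which transcript led a gene was reproducible in about 2 of 3 genes between the most alike libraries. The same transcript had the highest FPKM in air-dried 2 and 3 in 68.3% of the 331 genes and in control 2 and 3 in 67.4%. Between air-dried and control libraries of replicates 2 and 3 the share was 59.2% to 64.7%, slightly lower than within either group, and pairs with a replicate 1 library gave 37.2% to 53.2%. The top-transcript share of a gene differed by a median of 7.32 percentage points between air-dried 2 and 3 and by 8.54 points between control 2 and 3. It differed by 9.99 to 10.6 points between groups in the same replicates, and by 14.9 to 19.7 points in pairs with a replicate 1 library. Genes with 2 to 14 transcripts showed the same order in replicates 2 and 3. Their share differed by 4.82 points between the air-dried, 5.49 between the control and 6.84 to 7.17 between air-dried and control libraries. These pairs share libraries, so they are given as a description.

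**Figure D2:**
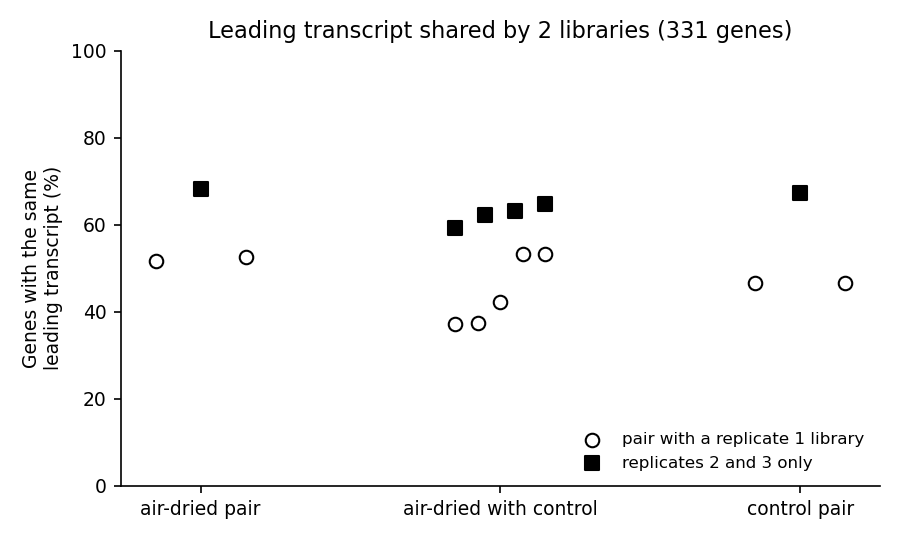
Percent of the 331 genes (y axis) in which the same transcript had the highest FPKM in both libraries of a pair, for pairs of air-dried libraries, of an air-dried with a control library, and of control libraries. Filled squares are pairs among replicates 2 and 3, from 59.2% to 68.3%, and open circles are pairs with a replicate 1 library, from 37.2% to 53.2%, all below the squares.

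One transcript led in all 6 libraries in 76 genes (23.0%) and in all 4 libraries of replicates 2 and 3 in 151 (45.6%). The leading transcript was the same in all 3 air-dried libraries and the same in all 3 control libraries in 81 genes, and in 5 of these the 2 groups had different leaders. In replicates 2 and 3 alone, 175 genes had 1 leader per group, and it differed between groups in 24. These counts describe the libraries and were not tested. They are given without the same counts for other genes, so they are not shown to be particular to this set.

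Few of the gene totals differed between air-dried and control leaves. Of the 326 genes tested, 2 rose and 6 fell in air-dried leaves (limma on log2(FPKM + 1), Benjamini-Hochberg adjusted p under 0.05 over all 22818 genes tested), or 2.45%. Over all genes tested 8.02% passed in either direction, 5.39% as higher and 2.62% as lower. The median log2 difference was 0.01 for the set and 0.03 for all genes tested. Without adjustment 51 of the 326 genes had p under 0.05, beside 24.5% of all genes tested, and the groups did not overlap in 77 (43 higher and 34 lower in air-dried leaves), beside 33.8% of all (19.6% higher and 14.2% lower). The median 95% half-width of a difference was 0.26 on the log2 scale for the set and 0.29 for genes with 2 to 14 transcripts. Leaving out both replicate 1 libraries gave 9 genes higher and 9 lower, beside 12.1% of all genes tested, and 6 of the 8 were among them in the same direction; the others, on chromosomes 3 and 18, then had adjusted p of 0.0645 and 0.0958 (limma). The count over all genes moved with single libraries too. Leaving out air-dried 2 left 0 of the 326 called at the adjusted threshold, beside 2.09% of all genes tested, with 38 at an unadjusted p under 0.05, beside 17.8% of all (limma). Leaving out air-dried 3, control 2 or control 3 left 1, 2 and 1 called, beside 2.08%, 3.17% and 2.8% of all, and leaving out air-dried 1 left 5, beside 5.33%.

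The largest fall among the called genes was that of POPTR_0001s12470.r1, with 17 transcripts on chromosome 1 from 9687046 to 9692901, plus strand. Its total was 2.99, 3.65 and 3.41 FPKM in air-dried leaves and 9.40, 6.15 and 6.74 FPKM in control leaves. All air-dried values lay below all control values, with control 1 the highest, and the means were 3.35 ± 0.333 and 7.43 ± 1.73 FPKM (SD, n = 3 each). The log2 difference was -0.94 with a standard error of 0.17 (limma, adjusted p = 0.0309). This call was lost in 6 of 15 alternative settings. Its top transcript, an assembled one, was listed near 0 in air-dried 1 and 3 and at 0.518 FPKM in air-dried 2, against 7.13, 3.03 and 1.39 FPKM in control leaves, and this transcript alone did not pass the test (limma, adjusted p = 0.163). It was the top one only with the replicate 1 libraries included. Over replicates 2 and 3 its mean was 1.23 FPKM, and another assembled transcript had a mean of 1.67 FPKM.

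POPTR_0012s06980.r1, with 19 transcripts on chromosome 12 from 7591341 to 7603520, plus strand, fell to 6.44, 5.53 and 5.49 FPKM in air-dried leaves, against 9.74, 10.8 and 8.96 FPKM in control leaves. The groups were well apart, with a log2 difference of -0.67 and a standard error of 0.10 (limma, adjusted p = 0.0203). This call was lost in 5 of 15 alternative settings. The same assembled transcript led in all 6 libraries and held 74.6%, 70.6% and 72.6% of the total in air-dried leaves and 76.0%, 60.5% and 50% in control leaves, shares that overlapped between the groups (limma, adjusted p = 0.723).

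The steadiest fall was that of the gene on chromosome 9 from 10884475 to 10888154, plus strand, with 17 transcripts. It had 17.2, 17.3 and 18.1 FPKM in air-dried leaves and 25.5, 27.8 and 26.5 FPKM in control leaves. The replicates differed little within either group, and the log2 difference was -0.57 with a standard error of 0.06 (limma, adjusted p = 0.00671). This call held in 14 of 15 alternative settings and was just lost without air-dried 2 (adjusted p = 0.052). Its leading transcript differed among libraries, with 4 leaders in 6 libraries, while the total hardly moved within a group.

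The other 3 falls were smaller. The gene on chromosome 3 from 11107751 to 11111356, with 20 transcripts of which 11 were KNOWN, had 24.01, 22.02 and 23.04 FPKM in air-dried leaves and 36.5, 29.01 and 33.6 FPKM in control leaves (log2 difference -0.50, limma adjusted p = 0.0406). On chromosome 4, a gene with 19 transcripts from 17726871 to 17729169 had 308, 290 and 288 FPKM in air-dried leaves and 436, 393 and 394 FPKM in control leaves (log2 difference -0.46, adjusted p = 0.0280). On chromosome 2, a gene with 22 transcripts from 4270400 to 4277002 had 14.5, 15.8 and 15.04 FPKM in air-dried leaves and 21.2, 20.2 and 21.2 FPKM in control leaves (log2 difference -0.44, adjusted p = 0.0143). The call of the chromosome 4 gene was lost with quantile normalization (log2 difference -0.45, limma adjusted p = 0.651). Over 15 alternative settings the calls on chromosomes 3, 4 and 2 were lost in 7, 6 and 5. In each of the 3 every air-dried value lay below every control value.

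The genes that rose were POPTR_0018s08820.r1 and POPTR_0007s05210.r1. POPTR_0018s08820.r1, with 17 transcripts on chromosome 18 from 9743028 to 9748251, plus strand, had 7.59, 8.15 and 7.71 FPKM in air-dried leaves and 5.38, 6.05 and 4.98 FPKM in control leaves. Its log2 difference was 0.45 with a standard error of 0.09 (limma, adjusted p = 0.0440). POPTR_0007s05210.r1, the chromosome 7 gene dominated by one KNOWN transcript, had 144, 149 and 147 FPKM in air-dried leaves and 114, 121 and 124 FPKM in control leaves. Its log2 difference was 0.30 with a standard error of 0.06 (limma, adjusted p = 0.0438), and the KNOWN transcript itself had 138, 143 and 141 FPKM in air-dried leaves and 112, 117 and 120 FPKM in control leaves. In both genes every air-dried value was above every control value. Both calls were lost with median-of-ratios scaling (adjusted p = 0.0576 and 0.0721) and with quantile normalization (0.0912 and 0.513), under which 0 genes of the set rose and 9 and 5 fell. Over all 22818 genes tested, 1108 rose and 735 fell with median-of-ratios scaling, and 846 rose and 481 fell with quantile normalization. In all, the call of POPTR_0018s08820.r1 was lost in 11 of 15 alternative settings, among them each omission of a single library. That of POPTR_0007s05210.r1 was lost in 9 of 15.

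**Figure D3:**
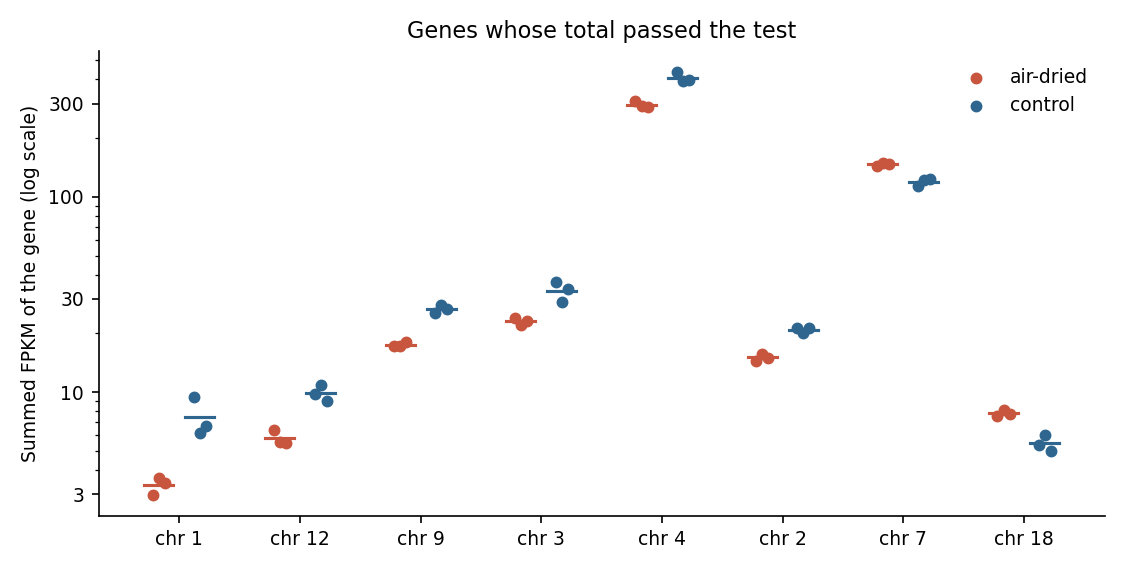
Summed FPKM of the gene (y axis, log scale) in each air-dried (left, red) and control (right, blue) library for the 8 genes whose total passed the test, labelled by chromosome, with a line at each group mean. The 3 air-dried points lie below the 3 control points in 6 genes and above them in the genes on chromosomes 7 and 18.

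No gene of the set passed the test for a difference in the share of its top transcript. Of 326 genes 0 were called (limma on the percent share, Benjamini-Hochberg adjusted over 16545 genes), beside 0.218% of all genes tested, and the lowest adjusted p of the set was 0.277. Without adjustment 28 had p under 0.05, beside 9.47% of all. The share was higher in air-dried leaves in 152 genes and lower in 174, and the groups did not overlap in 55 genes (16.9%), beside 18.9% of all genes tested. The precision of this comparison was low: the median standard error was 10.8 percentage points and the median 95% half-width 27.2 points, compared with 20.6 points for genes with 2 to 14 transcripts. Differences of a size common here were thus within the spread between libraries. The group means differed by 20 points or more in 59 genes, of which 28 were higher and 31 lower in air-dried leaves, and by 40 points or more in 6. These counts were not made for other genes. The median size of a difference was 9.17 points for the set and 7.44 points for all genes tested. Without both replicate 1 libraries the count was again 0, as it was over all genes tested, with 45 at an unadjusted p under 0.05, beside 13.6% of all.

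The widest of these differences show how the libraries of a group varied. The gene on chromosome 4 from 22543099 to 22546146 had 99.8%, 84.6% and 44.2% of its FPKM in its top transcript in air-dried leaves and 8.16%, 32.8% and 1.55% in control leaves. All air-dried shares were higher, by a mean of 62.1 points with a 95% half-width of 43.0 points (limma, adjusted p = 0.366), at totals of only 2.51 to 3.55 FPKM. A chromosome 9 gene, from 12635856 to 12641101, had 23.3%, 29.4% and 6.75% in its top transcript in air-dried leaves and 80.0%, 54.1% and 52.7% in control leaves, a difference of -42.5 points (adjusted p = 0.315) at totals of 11.7 to 14.7 FPKM. Its KNOWN transcript held 34.3%, 12.4% and 26.3% in air-dried leaves and was listed near 0 in all 3 control libraries. A chromosome 2 gene, from 7251575 to 7257339, whose top transcript was KNOWN, had shares of 48.7%, 60.2% and 51.4% in air-dried leaves and of 31.1%, near 0 and 3.10% in control leaves, a difference of 42.03 points (adjusted p = 0.312).

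**Figure D4:**
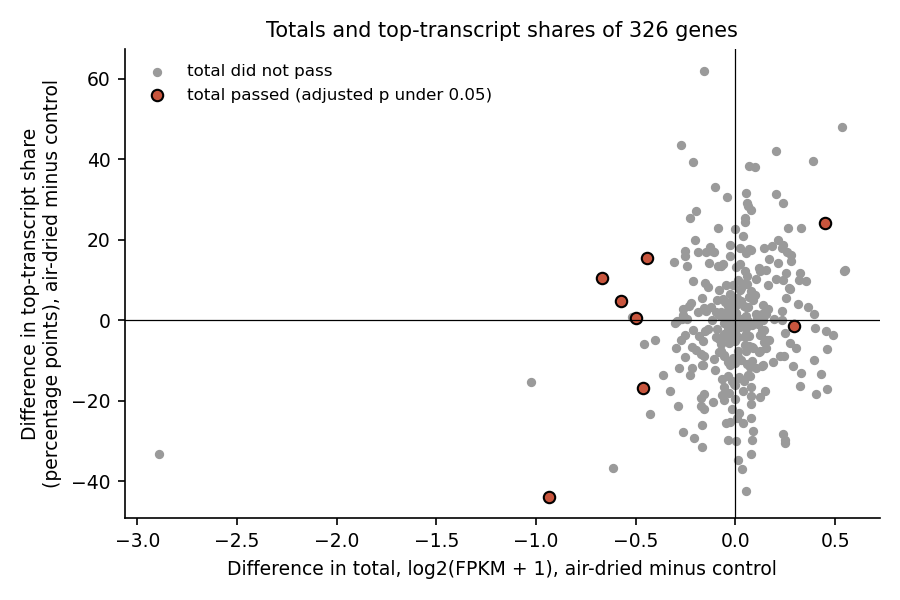
Difference in top-transcript share (y axis, percentage points) against difference in total (x axis, log2(FPKM + 1)), both air-dried minus control, for 326 genes, with the 8 genes whose total passed the test in red. Share differences reach from about -44 to 62.1 points at totals that mostly stay within 0.5 of 0, and the point at -2.89 is the chromosome 3 gene with 3500 FPKM in control 1.

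The balance of KNOWN and assembled transcripts was also without a called difference. For the share in KNOWN transcripts 0 of 326 genes passed (limma, adjusted over 16019 genes, lowest adjusted p 0.221), beside 0.144% of all genes tested, and 12 had an unadjusted p under 0.05, beside 8.66% of all. Of the 331 genes, 154 had an averaged share under 1% and 124 under 0.1%. A share near 0 in both groups leaves no difference to call, so these counts say little about such genes. The median 95% half-width, which includes them, was 5.52 percentage points, beside 16.0 for genes with 2 to 14 transcripts. In 162 genes the group means differed by less than 1 percentage point, and in 17 by 20 points or more, 11 of them higher and 6 lower in air-dried leaves. The same counts were not made for other genes. The median size of a difference was 1.06 points for the set and 5.34 points for all genes tested. A single call came from either of 2 settings: leaving out air-dried 1 gave 1 gene higher, beside 74 calls among all 16019 genes, and leaving out control 3 gave 1 gene lower, beside 7. Summed over the 331 genes, KNOWN transcripts held 31.5%, 32.3% and 31.2% of the FPKM in air-dried leaves and 17.01%, 24.3% and 27.4% in control leaves. The groups did not overlap in this sum. Without the 2 highest genes, on chromosomes 11 and 3, the groups were closer and still did not overlap. The values were then 28.4%, 29.9% and 29.97% in air-dried leaves and 25.3%, 28.2% and 28.2% in control leaves. The chromosome 1 gene from 45852754 to 45857125, dominated by a KNOWN transcript, was still in this sum. Its totals were 598, 614 and 611 FPKM in air-dried leaves and 425, 478 and 483 FPKM in control leaves. By these values the groups would overlap with this gene taken out as well, so the lack of overlap rests on a few high genes.

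Single transcripts were tested where their mean was at least 1 FPKM, which held for 1181 of the 6663 (158 KNOWN and 1023 assembled). Of these 5 rose and 6 fell in air-dried leaves (limma on log2(FPKM + 1), adjusted over 42451 transcripts), or 0.931%, beside 2.37% of all transcripts tested, 1.59% as higher and 0.789% as lower. Without adjustment 128 had p under 0.05, beside 16.1% of all. The 11 transcripts belonged to 9 genes, and no gene had called transcripts in both directions. Without both replicate 1 libraries 15 were higher and 16 lower, beside 3.78% of all, and 7 of the 11 were among them in the same direction.

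The clearest case was the most highly expressed gene of the set, on chromosome 11 from 14141050 to 14146189, minus strand, with 1 KNOWN and 19 assembled transcripts. Its total was 1145, 1324 and 1299 FPKM in air-dried leaves and 1082, 1347 and 1205 FPKM in control leaves. The totals overlapped and differed by 0.06 on the log2 scale with a standard error of 0.14 (limma, adjusted p = 0.845). Of its transcripts, 3 passed the test, all lower in air-dried leaves. The transcripts are named here by the number the assembly gave them.

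Assembled transcript 4, from 14141050 to 14146078, had 221, 175 and 178 FPKM in air-dried leaves and 508, 524 and 472 FPKM in control leaves. The groups were far apart, and it fell by 1.39 on the log2 scale with a standard error of 0.13 (limma, adjusted p = 0.00840). Assembled transcript 9, ending at 14146162, was listed near 0 in the 3 air-dried libraries and at 153, 97.3 and 36.5 FPKM in control leaves (adjusted p = 0.00600). Assembled transcript 17, ending at 14146189, was near 0 in air-dried 1 and reached 0.495 and 3.13 FPKM in the other air-dried libraries, against 82.0, 192 and 181 FPKM in control leaves (adjusted p = 0.0109). For transcripts so near 0 the fitted size depends on the pseudocount: that of transcript 9 was -6.37 on the log2(FPKM + 1) scale, -9.68 with a pseudocount of 0.1 and -4.13 with one of 5. All 3 calls held without both replicate 1 libraries (adjusted p = 0.0246, 0.0411 and 0.0409 for transcripts 4, 9 and 17). Each was lost without at least 1 single library: without air-dried 2 for transcripts 4 and 17 (0.0619 and 0.0663), without air-dried 3 for transcripts 4 and 9 (0.0722 and 0.0534), without control 2 for transcripts 4 and 17 (0.0517 and 0.0606) and without control 3 for transcript 17 (0.0633). The call of transcript 4 was also lost with quantile normalization (log2 difference -1.56, limma adjusted p = 0.296).

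Other transcripts of this gene did not pass the test. The KNOWN transcript, from 14141050 to 14145861, had 588, 613 and 500 FPKM in air-dried leaves and 168, 41.5 and 275 FPKM in control leaves. It held 51.4%, 46.3% and 38.5% of the total in air-dried leaves and 15.5%, 3.08% and 22.8% in control leaves, with no overlap (limma, adjusted p = 0.311 for the share as top transcript and 0.211 for the FPKM). Assembled transcript 19, a short one from 14143743 to 14146160, had 335, 476 and 471 FPKM in air-dried leaves and 53.7, 200 and 108 FPKM in control leaves (log2 difference 1.99, adjusted p = 0.123). Assembled transcript 1, from 14141050 to 14144590, spread widely in both groups, being near 0 in air-dried 1, with 57.2 and 142 FPKM in the other air-dried libraries and 89.1, 262 and 107 FPKM in control leaves. This gene was one of the 5 with one leader in all libraries of each group and different leaders between them: the KNOWN transcript in air-dried leaves and assembled transcript 4 in control leaves.

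**Figure D5:**
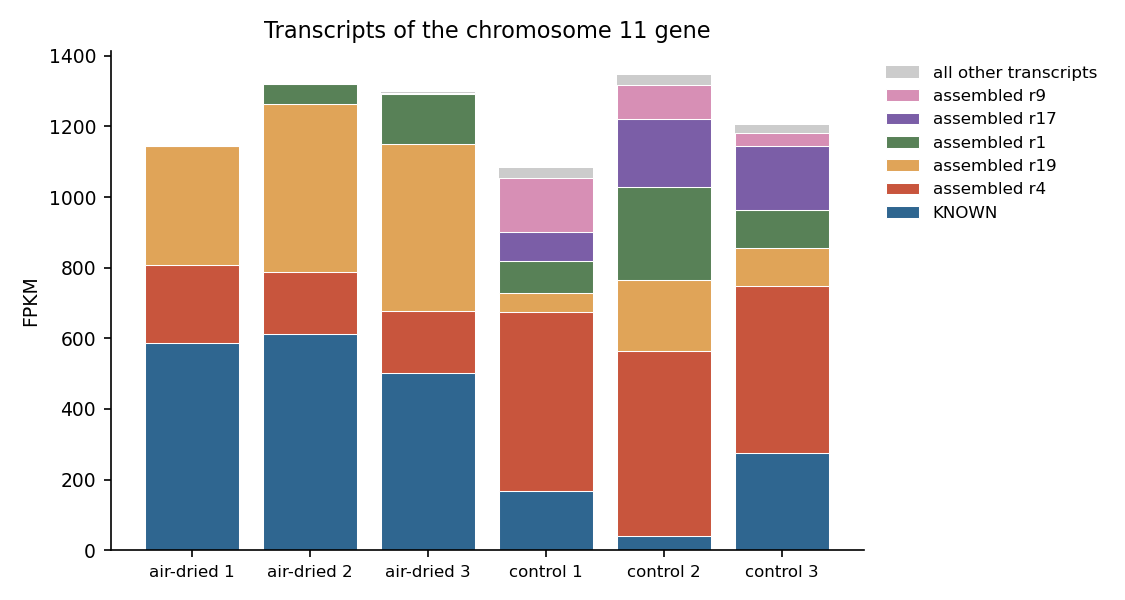
FPKM (y axis) of the transcripts of the chromosome 11 gene stacked for each library (x axis, air-dried then control), with the KNOWN transcript at the bottom and assembled transcripts 4 (r4), 19, 1, 17 and 9 above it. The bars have similar heights, from 1082 to 1347 FPKM, while transcript 4 is at 175 to 221 FPKM in air-dried and 472 to 524 FPKM in control libraries.

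The called transcripts of the other genes followed several patterns. In the chromosome 4 gene whose total fell, the assembled top transcript fell with it, at 177, 162 and 143 FPKM in air-dried leaves and 320, 277 and 275 FPKM in control leaves (log2 difference -0.85, limma adjusted p = 0.0321). Like that of the total, this call was lost with quantile normalization (adjusted p = 0.334). This sixth fall is given beyond the 5 that the rule for naming covers. In the same gene, a KNOWN transcript with 128 and 142 FPKM in air-dried 2 and 3 and 115 to 118 FPKM in the control libraries was listed at 0.00263 FPKM in air-dried 1. An assembled transcript of the same start and end had 112 FPKM in air-dried 1 and under 0.01 FPKM in the other 5 libraries. In the chromosome 2 gene whose total fell, an assembled transcript near 0 in all air-dried libraries had 3.39, 2.64 and 4.99 FPKM in control leaves (adjusted p = 0.0315).

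In the chromosome 9 gene whose total fell, one assembled transcript moved the other way, with 2.56, 3.92 and 2.76 FPKM in air-dried leaves and values near 0 in control leaves (adjusted p = 0.0322, limma). It held 14.8%, 22.7% and 15.3% of the lower totals of the air-dried leaves.

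The other called transcripts lay in genes whose totals did not pass. On chromosome 15, an assembled transcript of the gene from 11354980 to 11361277 had 8.85, 9.12 and 8.35 FPKM in air-dried leaves and 0.956 FPKM in control 2, and it was near 0 in control 1 and 3 (adjusted p = 0.0176, limma). It held 26.6%, 27.7% and 23.6% of its gene in air-dried leaves, and the total of the gene differed by -0.02 on the log2 scale. On chromosome 1, the gene with 20 KNOWN transcripts among 28, from 4808036 to 4815668, had 76.5, 60.03 and 71.9 FPKM of one KNOWN transcript in air-dried leaves and 37.6, 35.3 and 43.8 FPKM in control leaves (log2 difference 0.82, adjusted p = 0.0475). Another KNOWN transcript, ending at 4813338, had 16.8, 36.3 and 35.0 FPKM in air-dried leaves and 58.3, 85.9 and 79.3 FPKM in control leaves, which do not overlap (adjusted p = 0.122). These 2 were the leaders of the gene in the air-dried and in the control libraries, and its total was 228, 239 and 252 FPKM in air-dried leaves and 244, 271 and 272 FPKM in control leaves.

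The remaining called transcripts were low. On chromosome 3, an assembled transcript of the gene from 14023853 to 14031546 had 9.55, 7.37 and 6.22 FPKM in air-dried leaves and 0.768, 1.56 and 1.503 FPKM in control leaves (log2 difference 1.94, adjusted p = 0.0295, limma). On chromosome 13, an assembled transcript from 1660278 to 1664478 had 2.98, 1.97 and 2.19 FPKM in air-dried leaves and was near 0 in all control libraries (adjusted p = 0.0478). On chromosome 4, an assembled transcript from 20882342 to 20898564 was near 0 in all air-dried libraries and had 10.5, 4.50 and 3.43 FPKM in control leaves (adjusted p = 0.0410). Every air-dried value of these 3 transcripts lay on one side of every control value. Each of the 8 calls outside the chromosome 11 gene was lost when air-dried 2, air-dried 3 or control 3 alone was left out. With quantile normalization those on chromosomes 1 and 13 were lost as well (adjusted p = 0.0788 and 0.0847, limma), and with median-of-ratios scaling that on chromosome 1 (0.0523). With no filter on low values only the call on chromosome 15 was kept (adjusted p = 0.0485, limma). A pseudocount of 5 lost those on chromosomes 1 and 13 (0.0507 and 0.0550) and that of the chromosome 4 transcript from 20882342 to 20898564 (0.0993). One of 0.1 lost those on chromosomes 13 and 15 (0.0536 and 0.0794). Transcripts near 0 in 1 group reached the mean of 1 FPKM only through the other group.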

How the data were processed

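Poly(A) RNA of 3 air-dried and 3 control leaf samples was analysed. Per the submitters' processing notes, FastQC, TopHat and Cufflinks were used; versions, settings, genome build and annotation are not stated there or in the files. Per the file headers, each file holds FPKM per transcript, with gene, coordinates and a status that tells KNOWN from assembled transcripts, and these deposited FPKM values were used unchanged.

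FPKM were summed per gene, and shares are percent of that sum. Totals and transcripts (log2(FPKM + 1)) and shares (percent) were compared with limma 3.58.1 (R 4.3.3, empirical Bayes with trend) over all genes or transcripts with a mean of at least 1 FPKM, at an adjusted p under 0.05. The code was tested on simulated data, in which share changes were recovered only for genes with a low spread between libraries. Members and lists were chosen with earlier results of these data known. Named are the called genes, up to 5 called transcripts per direction, the 5 genes with most transcripts, the 5 with the highest totals, the 4 highest and 4 lowest top shares, and, beyond that rule and chosen after their values were seen, 3 of the widest share differences. No shares were called. The planned leaf-marker and gene-function lists could not be matched to identifiers and were not used. Alternatives left out libraries or changed filter, pseudocount, scaling or model. Sharing of reads between near-identical gene copies was not tested.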

Additional observations from a re-analysis of the deposited data

How the results depend on the processing

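Of the genes with 15 or more transcripts, 8 were called in total. Leaving out 1 library gave 0 to 8 (5, 0 and 1 when air-dried 1, 2 or 3 was omitted, 8, 2 and 1 when control 1, 2 or 3 was). Leaving out both replicate 1 libraries gave 18, and quantile normalization gave 5, all lower, where median-of-ratios scaling gave 0 higher and 9 lower. Over all 22818 genes tested the main fit called 1829, and leaving out 1 library gave 474 to 1995. Without both replicate 1 libraries, with quantile normalization and with median-of-ratios scaling the counts over all genes were 2767, 1327 and 1843. Of the transcripts, 11 were called, against 1 to 20 with 1 library left out (14, 3 and 1 when air-dried 1, 2 or 3 was omitted, 20, 3 and 3 when control 1, 2 or 3 was), 31 without both replicate 1 libraries and 6 with no filter on low values. Over all 42451 transcripts tested the main fit called 1008. The counts were 788, 264 and 193 without air-dried 1, 2 or 3 and 1172, 358 and 327 without control 1, 2 or 3. They were 1606 without both replicate 1 libraries and 646 of 101878 with no filter. The KNOWN share had 0 calls, and 0 to 1 with 1 library left out; the top-transcript share had 0 in every setting tried. No named call changed direction. The labels do not say whether the replicate numbers pair the samples. Deviations from the group means hardly correlated between same-numbered libraries (0.02, 0.04 and 0.01), which cannot show whether samples were handled in pairs. With a replicate block 1 total and 0 transcripts were called (limma), beside 661 of all 22818 genes and 71 of all 42451 transcripts tested. Where a count moved, the cause was not tested. The median top-transcript share of 38.2% was 41.7% in air-dried 2 alone and 40.3% and 42.1% in control 2 and 3 alone. The median KNOWN share of 2.05%, a mean over libraries for each gene, was 7.04e-08%, 0.00382% and 0.0198% in single air-dried libraries and 3.23e-11%, 0.00485% and 0.00126% in single control libraries. Read depth is unknown, so values near 0 cannot be told from failed estimates.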
